A study of Homo sapiens with 4 samples.

Results

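The albumin gene family consists of 4 related genes for secreted plasma proteins, ALB, AFP, AFM and GC, and its mRNAs were read here in lipid-loaded Hep G2 cells. The members were taken by Ensembl gene ID and make up 4 of the 62655 genes in the count table. Hep G2 is an established human hepatocellular line grown from 1 tumour, so the cells stand for one hepatoma background and not for normal hepatocytes. Cells were seeded at 150000 per ml and received oleic acid in the medium 24 h later, which makes them steatotic. After 24 h more, 1 group was transfected with an oligonucleotide mimic of LysTTT-5'tRF, a fragment from the 5' end of a lysine tRNA, and the other with a negative control oligonucleotide (NC). RNA was harvested after a further 24 h. Each group had 2 libraries, and oleic acid and transfection were common to both groups. The mimic columns were identified by elimination, since their name is not explained by the labels, and every direction below rests on that reading. The comparison asked which mRNAs differed when the tRNA fragment was supplied to steatotic cells.

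Albumin is the main protein of adult plasma, where it holds water in the circulation and carries fatty acids, bilirubin and many drugs. Alpha-fetoprotein (AFP) takes that place in the fetus. Its gene is silenced in the liver after birth and is often active again in hepatocellular tumours, which is why AFP serves as a serum marker. Afamin (AFM) binds vitamin E and carries Wnt proteins, and the GC product, the vitamin D-binding protein, carries vitamin D metabolites and scavenges actin. Transcription of the family in liver rests on hepatocyte factors such as HNF4A, the FOXA proteins and C/EBP, while ZHX2 and ZBTB20 repress AFP after birth.

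All 4 genes lie on chromosome 4 of GRCh38 (gene models of GENCODE release 29, which holds 58219 of the IDs), and all are protein-coding. ALB (ENSG00000163631) spans 73397114 to 73421412, AFP (ENSG00000081051) 73431138 to 73456174 and AFM (ENSG00000079557) 73481683 to 73504001, all on the forward strand. By the outer bounds of these models, AFP begins 9.725 kb past the end of ALB, and AFM 25.51 kb past the end of AFP. GC (ENSG00000145321) stands apart, 1593 kb before ALB, from 71741693 to 71804041 on the reverse strand. In that release no exon of the 4 overlaps an exon of another gene on either strand.

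RefSeq promoters (GRCh38.p14, 250 bases before to 50 after the transcription start) were at hand for 3 of the 4 members. They are shown because these neighbouring genes were read at very different levels. Capitals mark 2 motifs: CCAAT on either strand, the core of the CCAAT box, and TATAAA on the forward strand, 1 exact form of the TATA box. The RefSeq starts lie 7173 bases inside the GENCODE model of ALB, 5083 inside that of AFP and 62 inside that of AFM, so that by RefSeq AFP starts 14.81 kb past the end of the ALB model. Each sequence is written 5′ to 3′ on the forward strand.
ALB, chr4:73404037-73404336: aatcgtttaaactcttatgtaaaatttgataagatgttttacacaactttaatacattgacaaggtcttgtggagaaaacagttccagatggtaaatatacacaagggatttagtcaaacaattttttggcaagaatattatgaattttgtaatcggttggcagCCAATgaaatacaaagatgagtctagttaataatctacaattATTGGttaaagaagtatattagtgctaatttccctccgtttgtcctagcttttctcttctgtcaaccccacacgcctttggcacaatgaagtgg
AFP, chr4:73435971-73436270: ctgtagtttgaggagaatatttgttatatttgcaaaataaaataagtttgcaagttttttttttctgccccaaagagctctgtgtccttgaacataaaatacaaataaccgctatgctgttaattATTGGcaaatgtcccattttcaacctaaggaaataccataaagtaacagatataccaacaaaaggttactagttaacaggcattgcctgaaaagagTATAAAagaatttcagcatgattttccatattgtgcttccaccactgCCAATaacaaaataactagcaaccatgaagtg
AFM, chr4:73481495-73481794: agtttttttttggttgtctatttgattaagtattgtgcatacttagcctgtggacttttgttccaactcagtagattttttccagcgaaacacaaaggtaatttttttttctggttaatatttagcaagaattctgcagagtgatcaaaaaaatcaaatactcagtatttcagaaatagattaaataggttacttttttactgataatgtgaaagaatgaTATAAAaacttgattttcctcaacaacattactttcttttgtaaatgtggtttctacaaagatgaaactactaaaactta
TATAAA stood at -29 to -24 in AFP and -30 to -25 in AFM, counted from the start site at 1, and had no exact match in ALB. Of 35116 promoters of the same length, 7.33% held TATAAA. The search took no variants, and ALB reads tatatta at -30 to -24, so a TATA-like element in ALB is not excluded. CCAAT matched 2 times in ALB, at -86 to -82 and, on the reverse strand, at -44 to -40. In AFP it matched 2 times, on the reverse strand at -125 to -121 and past the start site at 19 to 23. AFM had no match, and 34.6% of all promoters had at least 1. The searches for the FOXA core TGTTTAC, the C/EBP palindrome TTGCGCAA and its shorter part TTGCG, on both strands, gave no match in the 3 windows. All 3 were AT-rich, with 33.3% G and C in ALB, 33% in AFP and 27.7% in AFM beside a median of 58.7% over all promoters.

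The 4 genes fell into 2 abundant and 2 scarcely read members. Levels are given as CPM, reads of a gene per 1000000 reads after TMM scaling of the libraries. Per kilobase of exon, the scale on which genes can be compared, ALB averaged 2954 ± 90.5 CPM per kb with the mimic and 2521 ± 218 in the control (mean ± SD, n = 2 each). AFP averaged 1140 ± 29.2 and 1044 ± 79 CPM per kb, AFM 0.368 ± 0.15 and 0.274 ± 0.238, and GC 0.0112 ± 0.0158 and 0.0125 ± 0.0177. The order ALB, AFP, AFM, GC held for the mean levels of both groups. ALB lay above AFP, and AFP above AFM, in each of the 4 libraries.

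**Figure D1:**
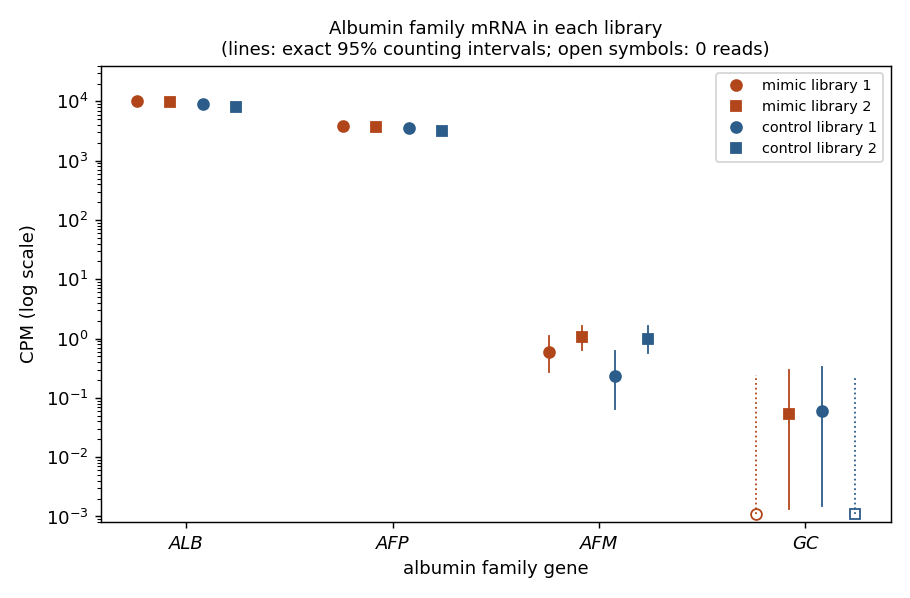
CPM on a log scale of ALB, AFP, AFM and GC in the 4 libraries, with exact 95% counting intervals as lines and open symbols at the foot of the axis for libraries with 0 reads. ALB and AFP lie between 3220 and 10192 CPM, AFM at about 1 CPM or less, and GC at 0 or 1 read.

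ALB was the fifth most abundant gene in every library, after FN1, APOB, MT-ND4 and MT-CO1 by mean CPM. It alone took 1.01% and 0.967% of all gene reads in mimic libraries 1 and 2, and 0.905% and 0.806% in control libraries 1 and 2. The exact 95% binomial intervals of these shares, 1.006 to 1.016%, 0.963 to 0.971%, 0.900 to 0.909% and 0.801 to 0.810%, did not overlap. They cover counting error only and not the spread between libraries. Reads carried no molecular identifiers, so even the counting error may be wider than these intervals. AFP ranked 15, 17, 17 and 21 in the same order of libraries. The whole family made up 1.39%, 1.33%, 1.26% and 1.13% of the gene reads, nearly all of it ALB and AFP.

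ALB mRNA was higher with the mimic by 1.17-fold. It was read at 10192 and 9760 CPM in mimic libraries 1 and 2 and at 9033 and 7991 CPM in control libraries 1 and 2, from 156054, 183336, 151920 and 128689 reads. Both mimic libraries lay above both controls, and the controls lay further from each other than the mimic libraries did. On the log2 scale the difference was 0.23 (SE 0.04, 95% interval 0.14 to 0.31, adjusted p = 0.0109, edgeR quasi-likelihood test). The SE, interval and p rest on a spread shared between genes and not on the ALB values alone. Of all genes tested, 0.277% were called higher on this threshold of 0.05, and in 19.8% both mimic libraries lay above both controls. The gene ranked 17 by p among 14464 genes. Its rise of 1464 CPM was the largest rise in mean CPM of any gene tested, followed among the members by AFP with 313.4 CPM, rank 4. A rise in CPM depends on the abundance of a gene as well as on its fold. By p, AFP ranked 303.

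Single pairs of libraries gave ALB folds from 1.08 (mimic library 2 over control library 1) to 1.275 (mimic library 1 over control library 2). Within groups, control library 1 exceeded control library 2 by 1.13-fold, a difference larger than 2 of the 4 folds between groups (1.081 and 1.128). Mimic library 1 exceeded mimic library 2 by 1.04-fold. Without control library 2 the log2 fold change was 0.14 and without control library 1 it was 0.32. Each of these fits left 1 control library, so only the size of the change is given. The call ended with no filter on low counts (log2 fold change 0.23, adjusted p = 0.754, edgeR) and in DESeq2 run without that filter (0.23, adjusted p = 0.342). DESeq2 on the filtered genes kept it (0.23, adjusted p = 0.0209).

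AFP lay in the same direction with a smaller difference that did not pass the test. Its values were 3783 and 3648 CPM in mimic libraries 1 and 2 and 3584 and 3220 CPM in control libraries 1 and 2. The groups did not overlap, but mimic library 2 exceeded control library 1 by only 1.02-fold, while the controls differed from each other by 1.11-fold. The log2 fold change was 0.13 (SE 0.04, 95% interval 0.04 to 0.21, adjusted p = 0.268, edgeR quasi-likelihood test). Without control library 1 it was 0.21 and without control library 2 it was 0.05, each with 1 control library left.

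**Figure D2:**
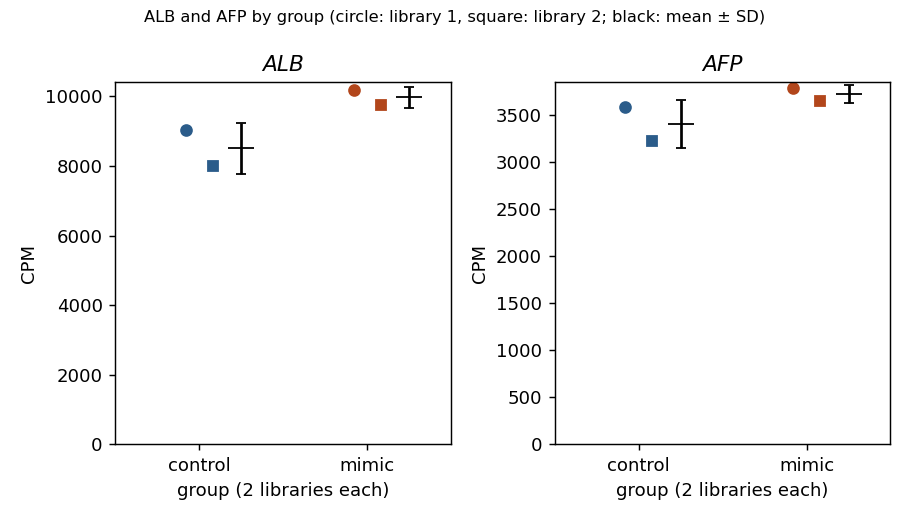
CPM of ALB (left) and AFP (right) in the 2 control and 2 mimic libraries, circles for library 1 and squares for library 2, with the group mean ± SD in black on axes that start at 0. ALB stands at 7991 and 9033 CPM in the controls and at 9760 and 10192 CPM with the mimic, and for AFP the upper control and the lower mimic library nearly meet at 3584 and 3648 CPM.

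The balance between the 2 abundant members differed by a small amount between the groups, on a measure in which library scaling cancels. AFP reads made up 27.1% of the ALB and AFP reads in mimic library 1 (exact 95% binomial interval 26.88 to 27.26%) and 27.2% in mimic library 2 (27.04 to 27.38%). In the controls they made up 28.4% (28.22 to 28.60%) and 28.7% (28.51 to 28.93%). The intervals overlapped within each group and not between groups, but they cover counting error only and not the spread between libraries. As a log2 ratio of AFP to ALB reads, the mimic stood at -1.42 ± 0.01 and the control at -1.32 ± 0.02 (mean ± SD, n = 2 each), a difference of -0.10. The exact two-sided permutation test over libraries gave p = 0.333, the smallest value that 2 libraries against 2 can give, so that test could not have passed 0.05. Leaving out any 1 library kept the difference between -0.11 and -0.09. Per kilobase of exon, ALB exceeded AFP by 2.60-fold and 2.58-fold in mimic libraries 1 and 2 and by 2.43-fold and 2.39-fold in control libraries 1 and 2. With the lengths of the transcripts that match RefSeq, 2263 bases for ALB and 2484 for AFP in place of 3377 and 3259 for all exons, the same ratios were 2.96, 2.94, 2.77 and 2.72.

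**Figure D3:**
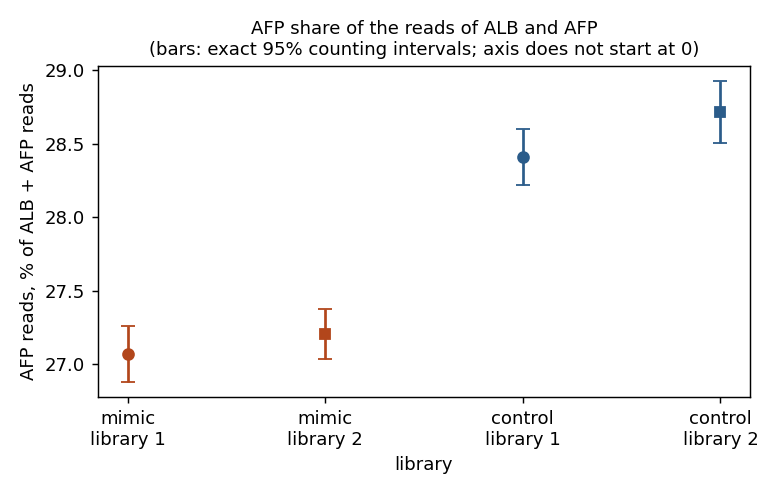
AFP reads as a percent of ALB plus AFP reads in each of the 4 libraries, with exact 95% counting intervals, on an axis that does not start at 0. Both mimic libraries lie at 27.1 and 27.2% and both controls at 28.4 and 28.7%.

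AFM was close to the limit of these libraries. Mimic libraries 1 and 2 held 9 and 20 AFM reads (0.588 and 1.06 CPM), and control libraries 1 and 2 held 4 and 16 (0.238 and 0.994 CPM). The groups overlapped. Of the exact 95% counting intervals, only those of mimic library 2 (0.650 to 1.64 CPM) and control library 1 (0.0648 to 0.609 CPM) lay apart from each other. AFM passed the filter on low counts through 1 library of each group. Its difference of 0.48 on the log2 scale was very uncertain, with 95% bounds at -0.79 and 1.75 (adjusted p = 0.881, edgeR quasi-likelihood test). The sign turned to -0.05 without mimic library 2 and to -0.22 without control library 1.

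GC was not detectable as an expressed gene at this depth. A single read was counted in mimic library 2 and in control library 1, and 0 reads in mimic library 1 and control library 2. The floor of 3 reads corresponds to 0.196 and 0.16 CPM in the mimic libraries and to 0.178 and 0.186 CPM in the controls, and no library reached it. GC did not pass the filter on low counts and was not tested, and no fold is given. Fewer cells with the mRNA and less mRNA per cell cannot be told apart in bulk libraries, for GC and AFM as for the changes of ALB.

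The libraries themselves were of like depth but not alike within groups. Reads assigned to genes ran from 15430539 to 18961222, and 5 summary entries that name no gene held 23.1% to 24.1% of the table. The hepatocyte markers HNF4A, TTR, APOA1, SERPINA1, FGB, TF and APOH were all detected, with summed levels of 10630 to 10890 CPM with the mimic and 10280 to 10680 CPM in the control. In all libraries 0 reads were counted for the leukocyte markers PTPRC, CD163, CD3E, MS4A1 and MARCO and the fibroblast markers DCN and LUM. KRT7 of the bile duct list and KDR of the endothelial list also had 0. Other members of these lists were read. SPP1, SOX9, KRT19 and EPCAM of the bile duct list and LYZ of the leukocyte list were abundant. The stellate and fibroblast list held PDGFRB (1138 reads in all), ACTA2 (913) and COL1A1 (228). The endothelial list held PECAM1 (545 reads in all), LYVE1 (111), CDH5 (85) and VWF (50). Summed levels of those 4 lists were 1530 to 1620 against 1474 to 1477 CPM for leukocytes (mimic against control, nearly all LYZ), 35.92 to 36.2 against 30.74 to 35.33 for fibroblasts and stellate cells, 2409 to 2443 against 2318 to 2344 for bile duct cells and 12.21 to 13.42 against 10.93 to 11.71 for endothelium. All 4 sums were higher in both mimic libraries, as were 19.8% of all genes tested, each taken alone. The fibroblast and stellate ranges nearly met, at 35.33 and 35.92 CPM. Within the bile duct list the log2 fold change was 0.15 for SPP1, its most abundant gene, and -0.24 for KRT19. The part of these lists in the results was not tested. Mimic library 1 and control library 2, with the highest and the lowest ALB and AFP, were also the ends of the first principal component (-23 and 26). The number of genes called was 50 of 14464 (0.346%). It changed with the omission of any 1 library, which left 1 library in that group.

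Among the other plasma proteins of the liver 1 gene passed the test. Of 36 listed, 33 were tested, 1 was called higher and 0 lower, beside 0.277% higher and 0.0691% lower over all genes. An unadjusted p under 0.05 (edgeR) was reached by 7 of them, beside 9.43% of all genes tested. The median log2 fold change was 0.03, with 22 members above 0, and 0.00 over all genes tested. The called gene was A2M, alpha-2-macroglobulin, a broad protease inhibitor. It was read at 5223 and 5018 CPM in mimic libraries 1 and 2 and at 4455 and 3900 CPM in control libraries 1 and 2, without overlap. Its log2 fold change was 0.29 (SE 0.04, 95% interval 0.20 to 0.38, adjusted p = 0.00195, edgeR quasi-likelihood test), and the call was lost in DESeq2 (0.29, adjusted p = 0.207). An antisense gene covers 8.79% of the A2M exons, so part of its count is less certain.

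The 5 most abundant genes of that list otherwise lay near 0. APOB, the structural protein of VLDL and LDL, was at 25180 and 25130 CPM with the mimic and at 25200 and 25090 CPM in the controls (log2 fold change 0.00, 95% bounds -0.06 and 0.06). SERPINA1 (alpha-1-antitrypsin) had 0.03, TF (transferrin) 0.03 and complement C3 0.08, with adjusted p-values of 0.863, 0.886 and 0.53 by edgeR. The upper bounds for APOB, SERPINA1 and TF, 0.06, 0.10 and 0.10, lay below the lower bound of ALB, 0.14, and that of C3, 0.15, did not. TTR, the thyroxine and retinol carrier transthyretin, had 0.26 (adjusted p = 0.119, edgeR) and the smallest p among the hepatocyte markers, of which 0 of 7 passed by edgeR, limma voom or DESeq2 and 3 had an unadjusted p under 0.05, beside 9.43% of all genes tested.

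**Figure D4:**
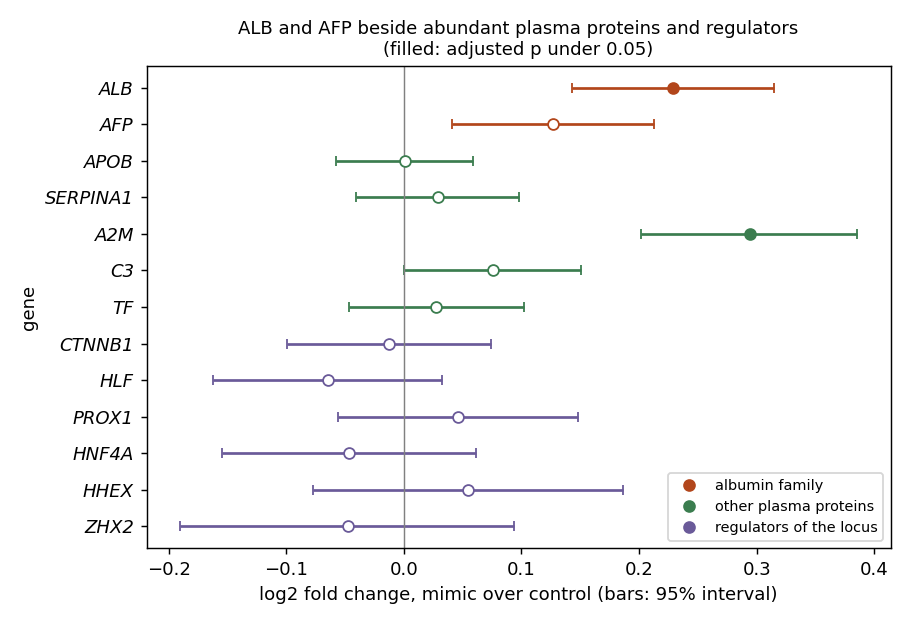
Log2 fold change, mimic over control, with 95% intervals for ALB and AFP (top), the 5 most abundant other plasma proteins and the 6 most abundant regulators of the albumin locus, filled where the adjusted p was under 0.05. ALB at 0.23 and A2M at 0.29 are the filled points, and the 6 regulators lie between -0.06 and 0.05.

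No regulator of the locus passed the test. All 31 listed genes were tested, 18 lay above and 13 under 0, and their median log2 fold change was 0.05. None was called by edgeR, by limma voom or by DESeq2 (which gave 18 of them an adjusted p), and 3 had an unadjusted p under 0.05 in edgeR, beside 1364 of all 14464 genes. GATA4, a zinc finger factor of endoderm and liver development, had the smallest p. It was read at 62.5 and 66.6 CPM in mimic libraries 1 and 2 and at 56.8 and 48.9 CPM in control libraries 1 and 2 (log2 fold change 0.29, 95% interval 0.13 to 0.45, adjusted p = 0.151, edgeR).

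The abundant regulators lay close to 0 on the log2 scale. HNF4A, the nuclear receptor at the centre of hepatocyte identity, had a log2 fold change of -0.05 and an interval from -0.15 to 0.06. Beta-catenin (CTNNB1) had -0.01, the PAR bZIP factor HLF -0.06, the homeobox factors PROX1 and HHEX 0.05 and 0.05, and the AFP repressor ZHX2 -0.05. Adjusted p-values of these 6 ran from 0.719 for HLF to 0.966 for CTNNB1 (edgeR quasi-likelihood test).

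Neighbours of the family on the chromosome were mostly silent or rare. Of 49 other genes within 1 Mb of a member, 28 had 0 reads in all libraries and 12 were tested, 6 of them above 0 and 6 under it (median log2 fold change -0.01). None passed by edgeR or limma voom, nor among the 3 to which DESeq2 gave an adjusted p, and 0 had an unadjusted p under 0.05 in edgeR. COX18, an assembly factor of cytochrome c oxidase, had the smallest p, with 15.1 and 17.0 CPM in mimic libraries 1 and 2 and 19.3 and 18.6 CPM in control libraries 1 and 2 (log2 fold change -0.23, adjusted p = 0.574, edgeR).

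Genes that handle the cargo of the family were read at modest levels, and none passed edgeR's test or limma voom. DESeq2 called none either, but gave an adjusted p to only 3 genes of albumin uptake, 4 of vitamin D and 2 of vitamin E. Of 8 genes for albumin uptake and recycling 5 were tested and 4 had an unadjusted p under 0.05, beside 9.43% of all genes tested. FCGRT, the neonatal Fc receptor that rescues albumin from degradation, had 66.7 and 70.9 CPM with the mimic and 77.2 and 75.0 CPM in control libraries 1 and 2 (log2 fold change -0.14, adjusted p = 0.52, edgeR; named after its value was seen). DAB2, an endocytic adaptor, had the smallest p, with 24.4 and 29.6 CPM in mimic libraries 1 and 2 and 34.8 and 39.7 CPM in control libraries 1 and 2 (log2 fold change -0.45, 95% interval -0.67 to -0.24, adjusted p = 0.0559, edgeR). The albumin receptors cubilin (CUBN, 19 reads in all) and megalin (LRP2, 6 reads in all), named after their values were seen, did not pass the filter on low counts.

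For vitamin D, which GC carries, 6 of 8 genes were tested, 1 above and 5 below 0, and 0 had an unadjusted p under 0.05. DHCR7, the sterol reductase that draws on the vitamin D precursor, had the smallest p (log2 fold change -0.14, adjusted p = 0.532, edgeR). The vitamin D receptor VDR, also named after its values were seen, had 13 reads in all. For vitamin E, all 6 genes were tested and 3 had an unadjusted p under 0.05, again beside 9.43%. TTPA, the alpha-tocopherol transfer protein, had the smallest, with 4.90 and 3.62 CPM in mimic libraries 1 and 2 and 2.62 and 2.42 CPM in control libraries 1 and 2 (log2 fold change 0.73, 95% interval 0.15 to 1.31, adjusted p = 0.392, edgeR).

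The pattern of ALB over the 4 libraries was shared closely by genes that are no plasma proteins. Likeness was measured as the Euclidean distance between log2 CPM values centred on each gene's mean, over 4 libraries and 2128 other genes of at least 100 CPM, as a description with no test. ALB deviated by 0.15 and 0.08 in mimic libraries 1 and 2 and by -0.03 and -0.20 in control libraries 1 and 2. The nearest genes were SEC14L1, a protein with a lipid-binding SEC14 domain (distance 0.00772), the receptor tyrosine phosphatase PTPRK (0.0208) and COBLL1, a relative of the actin regulator cordon-bleu (0.024). PTPRK was itself called (log2 fold change 0.24, adjusted p = 0.0362, edgeR) and lost its call without mimic library 1 (0.22) and without control library 2 (0.16). Of the SEC14L1 exons 4.44% are shared with SNHG20.

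AFP deviated by 0.09 and 0.04 in mimic libraries 1 and 2 and by 0.01 and -0.14 in control libraries 1 and 2. Its nearest genes were the phosphoinositide phosphatase SYNJ2 (distance 0.0144), the mitochondrial folate enzyme MTHFD2 (0.0197), of whose exons 33.2% lie opposite other genes, and the acetyltransferase CREBBP (0.0236). ALB and AFP lay 0.104 apart, so AFP was number 90 among the genes nearest to ALB, and ALB number 376 among those nearest to AFP.

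**Figure D5:**
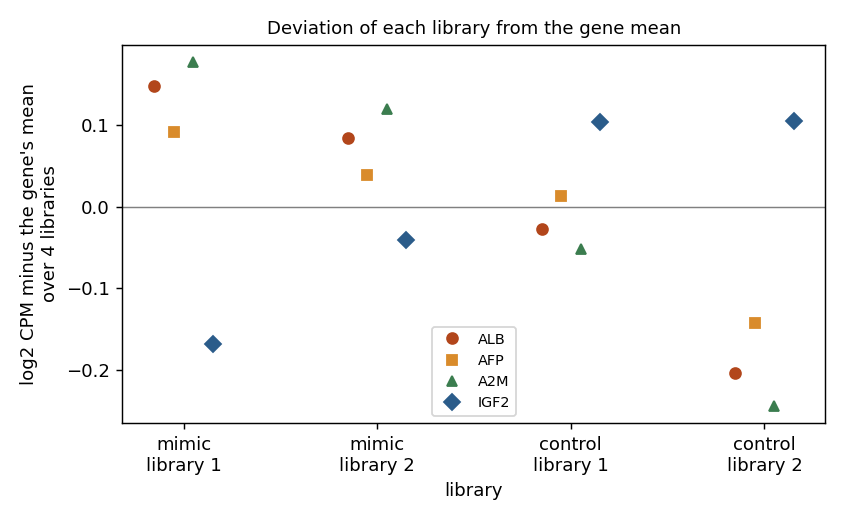
Log2 CPM of ALB, AFP, A2M and IGF2 (a fetal growth factor) in each library minus the gene's mean over the 4 libraries. ALB, AFP and A2M are highest in mimic library 1 and lowest in control library 2, at -0.20, -0.14 and -0.24, while both controls of IGF2 lie at 0.10 and 0.11.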

How the data were processed

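Poly(A)-selected RNA of 4 Hep G2 samples (500 ng input, integrity number above 9.5, per the labels) was sequenced in 2 mimic and 2 control libraries. The labels do not say whether these came from separate cultures, so the spread between these samples may be technical. edgeR also shares spread between genes: for ALB its test had 23.1 degrees of freedom from 4 libraries. SE, intervals and p-values thus rest largely on other genes and not on a gene's own values alone. The deposited values were raw counts per Ensembl gene; the submitters' processing notes name FastQC, Bowtie2, STAR, HTSeq and GRCh38.p14, and the strand setting is not given in the sources used here. Columns named NC were taken as control and those named 25, which no label explains, as mimic by elimination; the column numbers 1 and 2 only name the libraries. Symbols were found for 62590 IDs.

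Low counts were removed by filterByExpr (the CPM of 10 reads at the median depth in 2 libraries or more, and 15 reads in all), libraries scaled by TMM, and groups tested with edgeR 4.0.16 in R 4.3.3 (quasi-likelihood F test, legacy = FALSE), and p-values were adjusted by Benjamini-Hochberg over 14464 genes. The fit was checked on simulated data. Alternatives used DESeq2 1.42.0, limma 3.58.1 voom, other scalings and filters, and omission of each library. Exon lengths came from GENCODE 29, which is not the release behind the counts.

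Members and gene lists were chosen with earlier results of these data known. Beyond the members, named genes were those called in a list, else the 1 with the smallest p, the most abundant 5 plasma proteins and 6 regulators, and the 3 genes most like ALB or AFP; other exceptions are marked. One gene of the regulator and hepatocyte marker lists is not reported here.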

Additional observations from a re-analysis of the deposited data

How the results depend on the processing

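ALB kept its direction in all 14 alternatives, with log2 fold changes from 0.14 to 0.32 when 1 library was left out and from 0.21 to 0.23 otherwise. Leaving 1 library out leaves 1 library in its group, so whether a gene passed is not counted there. With all libraries ALB passed except in edgeR with no filter on low counts (0.23) and in DESeq2 without that filter (0.23). The latter was chosen after seeing the data. AFP stayed above 0 in all 14 (range over single omissions 0.053 to 0.207). With all libraries it passed only with a replicate block on the column number (0.13). AFM ran from -0.22 to 1.81 when 1 library was left out, reversed at -0.05 without mimic library 2 and at -0.22 without control library 1, and passed in none; it has no value with a minimum of 10 CPM. GC, at or under 1 read per library, did not pass the filter on low counts, and no fold of it is reported for the settings without that filter. The AFP to ALB ratio kept a difference of -0.11 to -0.09. With all libraries, A2M did not pass in DESeq2, with or without the filter on low counts, or in edgeR with no filter. IGF2 and PTPRK did not pass in edgeR with no filter, and IGF2 lay at the threshold with legacy = TRUE (adjusted p = 0.05, edgeR). These genes were also chosen after seeing the data.

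The number of genes called, 50, became 30 in DESeq2, 0 with no filter (edgeR, 1514 at an unadjusted p under 0.05), 306 with the replicate block, and 20 to 424 when 1 library was left out; the cause was not tested. The sample titles number the 4 samples without repeats, so only the column names share numbers. For that reason the numbers were not taken as pairs. Deviations of equal numbers correlated at 0.0234 and those of unequal numbers at -0.0234. With 2 libraries per group these values mirror each other, so they cannot decide whether equal numbers are pairs. ALB, AFP and A2M were lower in library 2 than in library 1 of both groups. AFM and GC had 20 reads or fewer per library, so their counting error is wide; what more depth or more libraries would change was not tested.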

Other observations

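Among 12 genes known for fetal liver or hepatoma, to which AFP belongs by its use as a marker, 11 were tested and 1 was called, lower with the mimic, beside 0.346% of all genes called and 0.0691% called lower. IGF2, the fetal insulin-like growth factor, fell from 787.3 and 788.6 CPM in control libraries 1 and 2 to 652.5 and 712.6 CPM in mimic libraries 1 and 2 (log2 fold change -0.21, 95% interval -0.30 to -0.11, adjusted p = 0.039, edgeR quasi-likelihood test). Its call was lost without mimic library 1 (log2 fold change -0.15, with 1 mimic library left). Of its exon sequence 73.7% is shared with other annotated genes on the same strand, so its count is uncertain. The oncofetal proteoglycan GPC3 (log2 fold change 0.02) and the RNA-binding protein IGF2BP1 (0.01), named after their values were seen, did not pass (edgeR adjusted p = 0.912 and 0.988). The list's median was 0.02, with 9 genes above and 2 below 0. An unadjusted p under 0.05 was reached by 4 genes, beside 9.43% of all genes tested. They were IGF2, IGF2BP3 (log2 fold change -0.14), AKR1B10 (0.30) and SPINK1 (1.22, from 72 reads in all). All but IGF2 were named after their values were seen, with edgeR adjusted p-values of 0.509, 0.0688 and 0.429.

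Of 21 genes for COPII transport, cargo receptors and disulfide formation, through which albumin leaves the cell, all were tested and none passed edgeR, limma voom or, for the 20 it gave an adjusted p, DESeq2. The median log2 fold change was 0.02, with 16 above 0 and 1 at an unadjusted p under 0.05, beside 9.43% of all genes tested. That gene was SAR1B, the GTPase of the COPII coat needed for chylomicron export, at 58.3 and 57.7 CPM in mimic libraries 1 and 2 and 52.4 and 51.2 CPM in control libraries 1 and 2 (log2 fold change 0.16, adjusted p = 0.498, edgeR). Its exons lie opposite SEC24A over 3.51% of their length. In the endothelial list VWF had the smallest p (1.30, adjusted p = 0.484, edgeR, from 50 reads in all), in the stellate and fibroblast list PDGFRB (0.18, adjusted p = 0.706), in the bile duct list KRT19 (-0.24, adjusted p = 0.0688), and in the leukocyte list LYZ, its 1 tested gene, stood at 0.09 (adjusted p = 0.442).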
